A study of Mus musculus with 6 samples.

Results

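The data described here are 10 genes of the YAP and TEAD axis in hearts of mice without Rbpms, a gene for an RNA-binding protein. The 10 genes are Yap1, Wwtr1, Tead1, Lats2, Ajuba, Amotl1, Amotl2, Ccn1, Ccn2 and Axl, chosen by symbol from the 20893 genes of the deposited table. All 10 were in the table, each with 1 row, and all 10 passed the filter on low values (10 or more in 3 or more libraries), as did 14974 genes in all. The set was drawn up with earlier results of the same comparison known, among them the values of Ccn2. Fold changes of the 10 genes are therefore a description, given with no p-value, and the counts of genes past a threshold test nothing. The knockout group was 3 heart libraries with the genotype R1KO, a germline knockout of Rbpms, and the wildtype group was 3 heart libraries, all of strain C57BL6/J. The series title calls the hearts embryonic, while its design text gives the stage as neonatal and names the wildtype hearts as littermates. The sources used here do not give the deleted part of Rbpms, the age in days or any pooling of hearts. Whether the libraries are from separate animals is not stated either, so errors and p-values reflect the scatter among 6 libraries, which may be technical.

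YAP (encoded by Yap1) and TAZ (encoded by Wwtr1) are transcriptional coactivators at the end of the Hippo pathway. They do not bind DNA themselves and reach it through TEAD proteins, of which TEAD1 is a main form in heart muscle. Active Hippo kinases, MST1 and MST2 acting on LATS1 and LATS2, phosphorylate YAP and TAZ and keep them out of the nucleus. In heart, YAP is known for its part in the growth of cardiomyocytes before and around birth. Many target genes of YAP and TAZ encode brakes on the pathway itself, such as LATS2 and the angiomotin proteins, and others encode matrix and signalling proteins such as CCN1 and CCN2.

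TEAD proteins bind the core CATTCC, which reads GGAATG on the other strand, and promoters of the 10 genes were searched for it on both strands. The window was the 250 bases before the RefSeq start, in the build GRCm38.p6. RefSeq promoters were matched by symbol for 8 of the 10 genes, all but Ccn2 and Tead1. The core was in the window of 6 of these 8 genes, Yap1, Wwtr1, Ccn1, Amotl2, Ajuba and Axl, and not in that of Amotl1 or Lats2. For comparison, 13.2% of the 13428 genes of the deposited table with a RefSeq promoter and 12.6% of all 32851 windows hold it. Promoters of Ccn1, Amotl2 and Ajuba are shown whole as examples of a secreted target, a YAP-binding protein and a LIM protein whose core lies on the strand of the gene. They are written on the strand of the gene, with the core in capitals.
Ccn1, chr3:145649986-145650235, reverse strand: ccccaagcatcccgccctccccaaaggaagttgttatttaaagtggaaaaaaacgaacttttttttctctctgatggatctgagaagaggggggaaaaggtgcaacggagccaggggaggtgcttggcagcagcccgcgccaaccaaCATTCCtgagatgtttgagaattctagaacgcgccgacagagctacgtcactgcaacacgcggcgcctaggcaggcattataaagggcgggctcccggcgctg
Amotl2, chr9:102717554-102717803, forward strand: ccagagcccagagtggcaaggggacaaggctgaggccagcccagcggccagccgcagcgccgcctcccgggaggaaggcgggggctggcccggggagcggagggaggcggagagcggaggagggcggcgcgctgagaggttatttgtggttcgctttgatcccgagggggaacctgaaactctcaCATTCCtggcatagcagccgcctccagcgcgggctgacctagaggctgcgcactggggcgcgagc
Ajuba, chr14:54577662-54577911, reverse strand: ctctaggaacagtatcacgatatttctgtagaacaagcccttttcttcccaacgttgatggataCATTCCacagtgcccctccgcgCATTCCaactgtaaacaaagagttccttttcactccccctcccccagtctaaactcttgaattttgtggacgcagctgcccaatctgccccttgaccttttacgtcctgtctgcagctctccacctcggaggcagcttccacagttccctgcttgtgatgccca

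In Ccn1 the core began 103 bases before the start and in Amotl2 65 bases before it. Ajuba held 2 copies, at 186 and 164 bases before the start. Yap1, Wwtr1 and Axl held 1 copy each on the other strand, at 141, 136 and 233 bases before the start (for Wwtr1 the nearer of 2 starts). Those copies are shown with the bases around them, since they include both coactivator genes.
Yap1, chr9:8004720-8004749, reverse strand: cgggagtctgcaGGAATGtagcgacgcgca
Wwtr1, chr3:57576029-57576058, reverse strand: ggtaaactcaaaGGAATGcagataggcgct
Axl, chr7:25788949-25788978, reverse strand: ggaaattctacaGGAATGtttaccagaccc

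A copy of the core is a match of letters, and nothing in these data measured binding of a TEAD protein there.

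**Figure D1:**
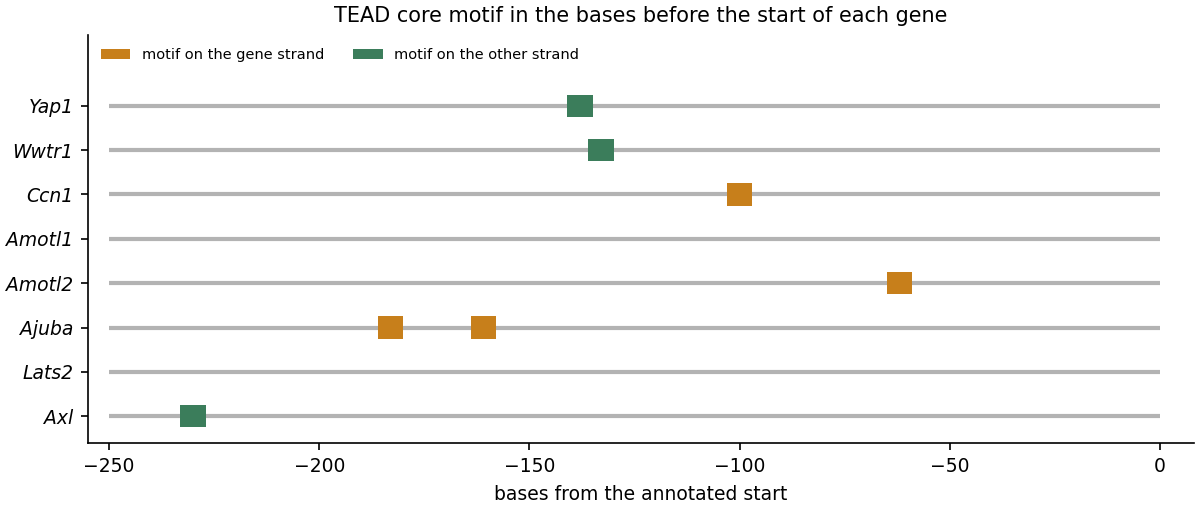
Position of the TEAD core in the 250 bases before the start of the 8 genes with a RefSeq promoter; the horizontal axis is the distance from the start in bases, and colours give the strand. Ajuba holds 2 copies, Amotl1 and Lats2 hold none, and the copy of Amotl2 lies nearest to a start.

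The deposited values, called values below, are read numbers scaled for each library and rounded. Read totals recovered from them ran from 4163230 to 5805783 per library. Rbpms stood at 375, 340 and 507 in knockout replicates 1, 2 and 3 and at 1182, 1176 and 1317 in wildtype replicates 1, 2 and 3 (log2 fold change -1.61, limma, adjusted p = 0.0124), lower in every knockout library. All 6 cardiomyocyte markers searched were present in every library, with summed values of 18608 to 21197 in knockout and 20379 to 22465 in wildtype hearts. By Xist and Ddx3y, 2 libraries of each group were male and 1 was female, knockout replicate 3 and wildtype replicate 1. Of all 14974 tested genes limma on log2(value + 1) called 141 at an adjusted p under 0.05, and in knockout hearts 76 of these were higher and 65 lower. That split was 53.9% higher, and 42.0% higher with values rescaled to equal library totals. The count ran from 0 to 727 when each library was left out in turn, lowest without wildtype replicate 2 or 3 and highest without knockout replicate 3.

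All 10 genes had a fold change above 0, as did 49.8% of all tested genes. The median log2 fold change was -0.001 over all tested genes and 0.29 over the 10 genes. In 6 of them, Tead1, Ajuba, Amotl2, Axl, Ccn1 and Ccn2, every knockout library lay above every wildtype library, which held for 11.0% of all tested genes. By limma 0 of the 10 genes were called, where 0.942% of all genes were. At an unadjusted p under 0.05, 6 were higher, as were 8.54% of all genes, and voom on recovered reads called 0, where it called 0.488% of genes. Ccn2 and Amotl2 passed without knockout replicate 2 (3.41% of all genes called), and Ccn2 and Ajuba without knockout replicate 3 (4.86%). Ccn1 and Ccn2 passed when sex was added as a term (1.49%), and also in the 4 male libraries alone (1.71%). Since these counts come from the comparison that the set was chosen on, nothing is read from them.

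**Figure D2:**
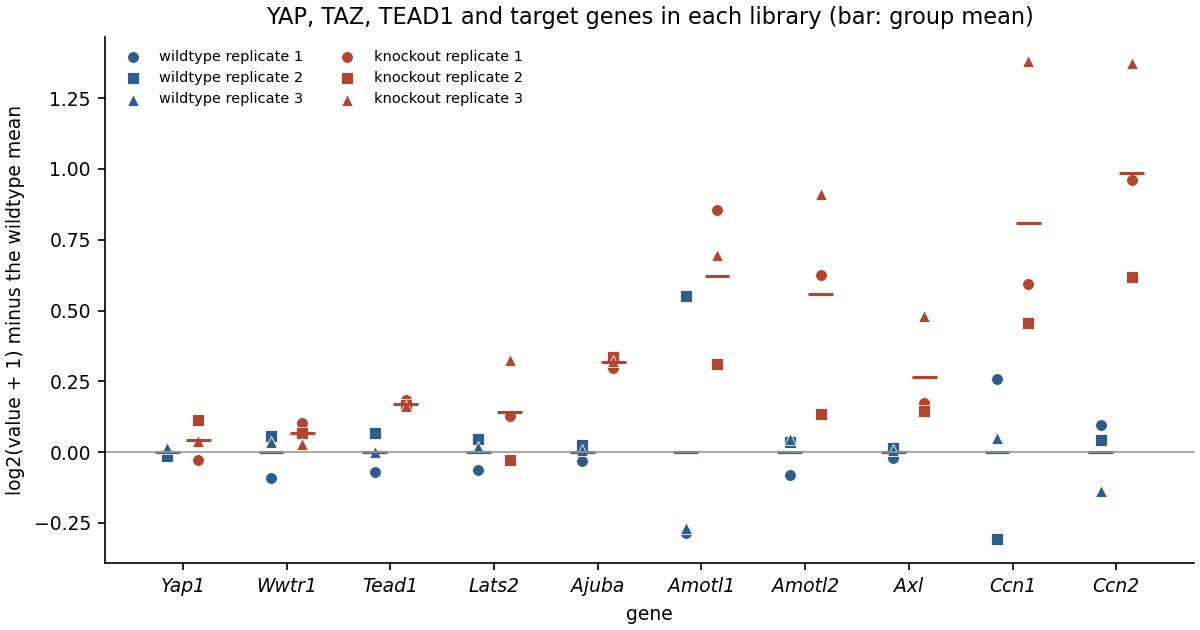
Difference of each library from the wildtype mean on the log2(value + 1) scale (vertical axis) for the 10 genes (horizontal axis); colours give the group, symbols the replicate, and short bars the group mean. Yap1 and Wwtr1 lie near 0 in all libraries, and Ccn1 and Ccn2 reach 1.38 in knockout replicate 3.

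The coactivators themselves were near their wildtype values. Yap1 (ENSMUSG00000053110, chromosome 9, 7932000 to 8004597, reverse strand, mm39) stood at 905, 998 and 947 in knockout replicates 1, 2 and 3 and at 921, 914 and 932 in wildtype replicates 1, 2 and 3. The groups overlapped (log2 fold change 0.04, standard error 0.06). Wwtr1, the gene of TAZ (ENSMUSG00000027803, chromosome 3, 57363070 to 57483331, reverse strand), stood at 980, 957 and 932 in the knockout libraries. Its wildtype values were 856, 950 and 936, so that the lowest came from the female library, and the groups overlapped here too (log2 fold change 0.07, standard error 0.06). Messenger RNA levels say nothing of where YAP and TAZ proteins were in the cell or how much of them was phosphorylated.

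Tead1, which encodes 1 of the DNA-binding TEAD partners, differed by a small step. Its values (ENSMUSG00000055320, chromosome 7, 112278525 to 112506014, forward strand) were 1320, 1305 and 1300 in the knockout and 1108, 1219 and 1162 in the wildtype libraries. The knockout libraries lay close together and above all wildtype libraries. On the log2(value + 1) scale the fold change was 0.17 (standard error 0.06), a fold of 1.13. The annotated lncRNA gene 2310014F06Rik overlaps the 5' end of Tead1 on the opposite strand and held values of at most 52.

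Lats2 and Ajuba act on the kinase step before YAP. Lats2 encodes a kinase that phosphorylates YAP and TAZ, and it is a target gene of them as well. Lats2 (ENSMUSG00000021959, chromosome 14, 57927119 to 57995845, reverse strand) stood at 368, 331 and 423 in knockout and 323, 348 and 341 in wildtype libraries. Knockout replicate 2 fell inside the wildtype range. The log2 fold change of 0.14 (standard error 0.10) was 0.05 without knockout replicate 3.

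Ajuba encodes a LIM domain protein that binds LATS kinases and holds back their action on YAP. Its values (ENSMUSG00000022178, chromosome 14, 54804929 to 54815015, reverse strand) were 388, 399 and 395 in the knockout libraries and 309, 321 and 317 in the wildtype libraries. Both groups were tight, at 394 ± 5.57 and 316 ± 6.11 (SD, n = 3 each). With 269 to 463 recovered reads per library, read counting alone is expected to spread values by more than this. These SDs of 3 values therefore understate the uncertainty of the difference. Ajuba had a log2 fold change of 0.32 (standard error 0.07), which lay between 0.30 and 0.33 over 17 alternative settings. Several of these settings, such as the filter and the moderation, cannot move a fold change.

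Amotl1 and Amotl2 encode angiomotin-like proteins, which bind YAP at cell junctions and on actin. Amotl2 (ENSMUSG00000032531, chromosome 9, 102593871 to 102610617, forward strand) stood at 1080, 768 and 1316 in knockout replicates 1, 2 and 3. Its wildtype values were 661, 717 and 722, below all knockout values, though knockout replicate 2 was close to them. The log2 fold change was 0.56 (standard error 0.18). In the 4 male libraries it was 0.34, and between the 2 female libraries the difference was 0.99.

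Amotl1 was the most variable of the 10 genes among the wildtype libraries. Its values (ENSMUSG00000013076, chromosome 9, 14453262 to 14556352, reverse strand) were 824, 1473 and 834 in wildtype replicates 1, 2 and 3. In the knockout libraries they were 1816, 1245 and 1629. Wildtype replicate 2 thus lay above knockout replicate 2, and the groups overlapped. The log2 fold change of 0.62 (standard error 0.26) was 0.90 without wildtype replicate 2 and 0.44 in the male libraries. The 6 genes within 500 kb of Amotl1 that averaged at least 100 (Endod1, Sesn3, Panx1, Mre11a, Cwc15 and Ankrd49) did not share the high value of wildtype replicate 2, which held, for example, 544 for Sesn3 against 550 and 457 in wildtype replicates 1 and 3.

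The matricellular genes Ccn1 and Ccn2 had the highest fold changes of the set. They encode secreted proteins that bind integrins and matrix, and they are the target genes most often read as a measure of YAP and TAZ activity. Ccn2 (ENSMUSG00000019997, chromosome 10, 24471340 to 24474581, forward strand) stood at 1214, 956 and 1617 in knockout replicates 1, 2 and 3. In wildtype replicates 1, 2 and 3 it stood at 665, 641 and 566. All knockout libraries were above all wildtype libraries, and the knockout libraries also spread more widely, with an SD of 333 against 51.6. This was a log2 fold change of 0.99 (standard error 0.18), or a fold of 1.98. It was 0.84 in the male libraries, 1.28 between the female libraries and 0.79 without knockout replicate 3.

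An annotated lncRNA gene, Gm15270, lies on the opposite strand and shares chromosome 10, 24471340 to 24473006, with Ccn2. It held 231, 138 and 360 in the knockout and 129, 138 and 109 in the wildtype libraries, between 14.4% and 22.3% of the value of Ccn2 in the same library. The libraries are stranded, but the sources used here do not name the strand setting of the read counting. Reads of the shared stretch could therefore be counted for either gene, and the part this has in either value was not tested.

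Ccn1 (ENSMUSG00000028195, chromosome 3, 145352731 to 145355736, reverse strand) carries the description of another gene, a cyclin, in the deposited table, while its identifier and symbol are those of Ccn1 in the reference names as well. Its values were 439, 399 and 760 in knockout and 348, 235 and 301 in wildtype libraries. The groups did not overlap, but knockout replicate 3 stood far above the other knockout libraries. Ccn1 had a log2 fold change of 0.81 (standard error 0.27), and of 0.52 without knockout replicate 3. It was 0.65 in the male libraries and 1.12 between the female libraries.

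Axl encodes a receptor tyrosine kinase of the TAM family that binds GAS6, and it is a YAP target gene in several cell types. Axl (ENSMUSG00000002602, chromosome 7, 25456698 to 25488130, reverse strand) stood at 951, 932 and 1175 in knockout and 830, 851 and 846 in wildtype libraries. All knockout libraries were above the tight wildtype group, of 830 to 851. The log2 fold change of 0.27 (standard error 0.09) was 0.16 without knockout replicate 3 and 0.15 in the male libraries.

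Levels of different genes were compared per exon length, as RPKM, recovered reads scaled to exon length and library total. In wildtype hearts Ccn2 had the highest level, at 44.8 ± 4.01, followed by Wwtr1 at 39.3 ± 2.14, Axl at 34.4 ± 0.483 and Ccn1 at 30.0 ± 5.74 (SD, n = 3 each). Ccn2 and Wwtr1 differed by less than the sum of their SDs, as did Axl and Ccn1. Amotl2 at 22.9 ± 1.04, Amotl1 at 21.3 ± 7.70 and Yap1 at 20.5 ± 0.0691 came next, with gaps between neighbours below the summed SDs. Ajuba at 17.8 ± 0.362 and Tead1 at 17.6 ± 0.875 could not be ordered, and Lats2 was lowest at 9.94 ± 0.383. Per exon length Wwtr1 was thus above Yap1 in wildtype hearts, although their mean values were alike, at 914 and 922. The gap rests on the annotated exon lengths, 4779 and 9257 bases. Which transcript lengths the hearts express was not tested. In knockout hearts Ccn2 stood at 89.3 ± 23.5 and Ccn1 at 53.4 ± 19.8, while Wwtr1 stood at 40.5 ± 1.17 and Yap1 at 20.8 ± 0.930. Among the 96.5% of genes with an exon length, none averaged above 0.925 recovered reads per base of exon, and Ccn2 was the highest of the 10 at 0.344. Whether a ceiling on reads per base narrowed the differences of such genes was not tested.

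**Figure D3:**
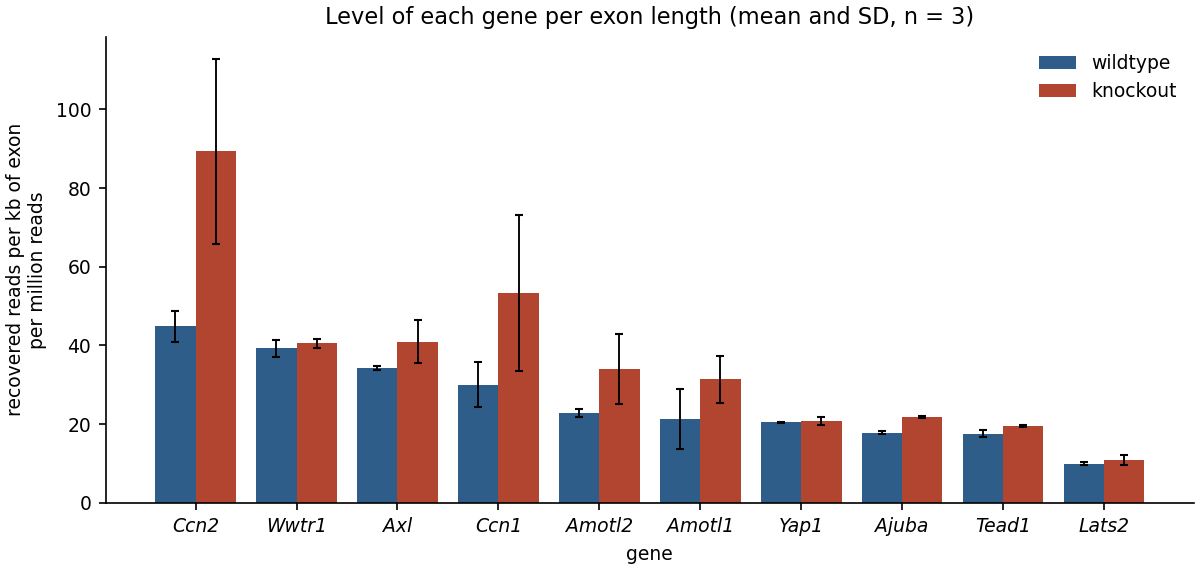
RPKM from recovered reads (vertical axis, starting at 0) for the 10 genes ordered by their wildtype level; bars are means and error bars SDs over 3 libraries. Ccn2 stands above all others in the knockout group at 89.3, and the Yap1 bars are alike at 20.5 and 20.8.

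Knockout libraries differed among themselves, in an order that 5 of the 10 genes shared. Knockout replicate 3 was the highest of all 6 libraries in 5 genes, Ccn1, Ccn2, Amotl2, Lats2 and Axl, and knockout replicate 2 was the lowest knockout library in 6. The shares of all tested genes with these orders were not determined, so nothing is read from the counts. The median difference of the 10 genes from the wildtype mean was 0.24, 0.16 and 0.40 on the log2 scale in knockout replicates 1, 2 and 3, where the median over all tested genes was at most 0.01. After each group's mean was removed, the 6 values of Amotl2, Lats2, Axl and Ccn1 ran with those of Ccn2, with Pearson r of 0.88, 0.87, 0.86 and 0.79. For Amotl1 r was 0.39, for Tead1 -0.11, and for Yap1, Wwtr1 and Ajuba -0.51, -0.38 and -0.27. These are descriptions over 6 libraries that share their depth and their groups, and 13.3% of all tested genes had such an r at or above that of Ccn1.

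**Figure D4:**
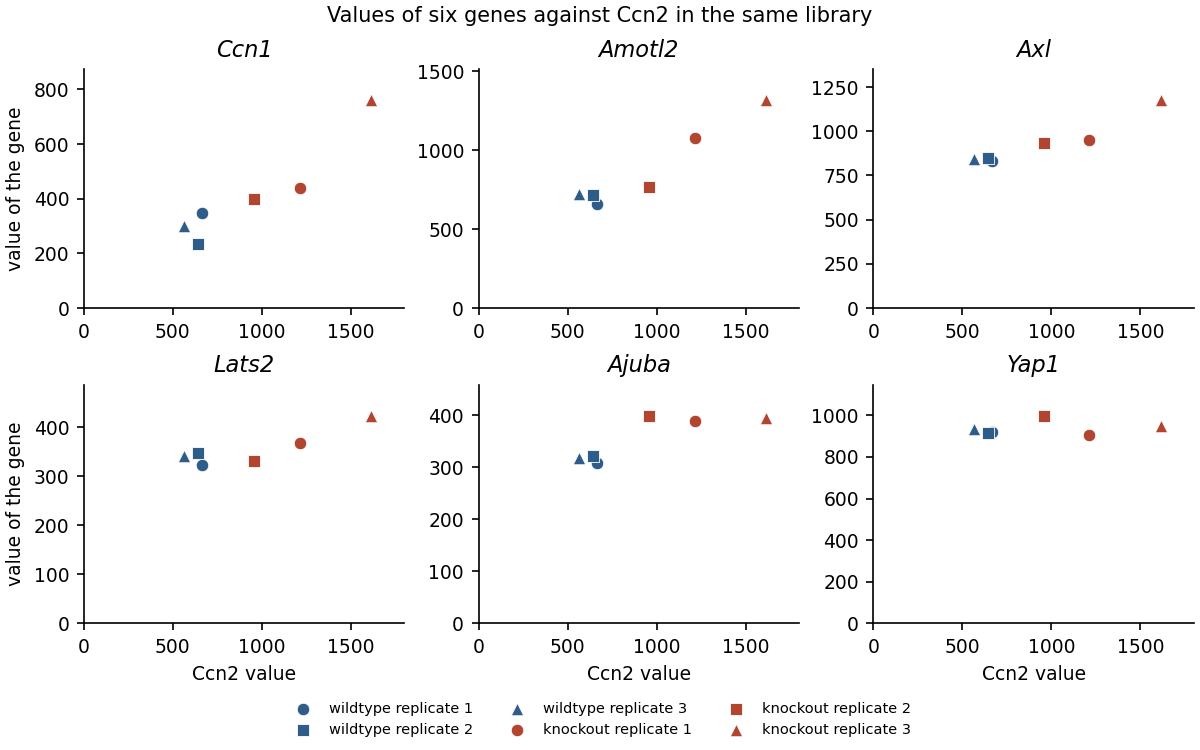
Value of each of 6 genes (vertical axis, starting at 0) against the value of Ccn2 (horizontal axis) in the same library; colours give the group and symbols the replicate. Ccn1, Amotl2 and Axl are highest in the library with the highest Ccn2 value, 1617, whereas Ajuba splits into 2 flat groups and Yap1 stays level.

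Knockout replicate 3 also stood apart in markers of other cell types. Its summed epicardial and mesothelial markers were 847, against 1503 and 1541 in the other knockout libraries and 1333 to 1548 in wildtype, with Upk3b at 79, Msln at 136 and Lrrn4 at 22 there. The list's Tbx18 lay inside the wildtype range in that library, at 286 against 271 to 322, and Wt1 was higher in every knockout library, at 265, 259 and 245 against 191, 225 and 218. Alas2, a heme synthesis gene of erythroid cells, stood at 253, 324 and 1004 in knockout replicates 1, 2 and 3 and at 248, 226 and 336 in wildtype replicates 1, 2 and 3, while the globin genes Hba-a1, Hba-a2, Hbb-bs and Hbb-bt overlapped between groups. Those single markers were picked after their values were seen. Endothelial and endocardial markers summed to 6219 to 6568 in knockout and 5681 to 5951 in wildtype hearts, with Emcn at 519, 481 and 592 against 378, 406 and 413. Of that list Emcn and Npr3 had log2 fold changes of 0.41 and 0.55, while Pecam1 had 0.12, Tek 0.05, Kdr 0.03 and Cdh5 -0.04. Macrophage markers summed to 991 to 1110 against 935 to 989, and the list was split. Mrc1, C1qb and C1qa had log2 fold changes of 0.42, 0.31 and 0.16, while Csf1r, Cd68 and Adgre1 had -0.08, -0.28 and -0.30. Neither list held a called gene. The sums of fibroblast markers overlapped (9722 to 11792 against 10307 to 12184), but the list was split. Tcf21, picked after its values were seen, was higher in every knockout library, at 383, 340 and 419 against 291, 296 and 289. The other log2 fold changes of that list ran from -0.13 for Col3a1 to -0.01 for Pdgfra. The sums of smooth muscle and pericyte markers (3084 to 3557 against 3345 to 3563) overlapped too. Within the last list Cnn1 and Myh11, contractile genes picked after their values were seen, were lower in every knockout library, Cnn1 at 38, 88 and 112 against 202, 155 and 195, and Myh11 at 171, 227 and 216 against 303, 339 and 289. Tagln, also contractile, overlapped at 246, 362 and 512 against 381, 343 and 373, and Pdgfrb had a log2 fold change of 0.12. Markers of lung epithelium, hepatocytes, thymocytes and skeletal muscle summed to at most 6, 81, 26 and 24 in any library. In bulk hearts, more cells of a type and more RNA per cell cannot be told apart. Without knockout replicate 3 the log2 fold changes of Ccn2, Ccn1, Amotl2 and Ajuba were 0.79, 0.52, 0.38 and 0.32, and the part of the markers in them was not tested.

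Outside the 10 genes, Ankrd1 rose among the other YAP and TAZ target genes. Ankrd1 encodes a stretch-responsive ankyrin repeat protein of cardiomyocytes. It stood at 1677, 1539 and 1899 in knockout and 1123, 1232 and 1228 in wildtype libraries, a log2 fold change of 0.51 (standard error 0.08, limma, adjusted p = 0.0372). The list was 17 further genes of a published target signature from human tumours, written with earlier results for Ankrd1 known. Of its 16 tested genes 1 rose and 0 fell, where 0.942% of all genes were called in either direction. Since the result for Ankrd1 was known when the list was written, nothing is read from that 1 call. The unadjusted p was under 0.05 for 8 genes, all of them higher, where 8.54% of all genes were so. The list's median log2 fold change was 0.29, close to that of the 10 genes. Of its fold changes 13 of 16 were above 0, against 49.8% over all tested genes. In 6 of the tested list genes every knockout library lay above every wildtype library, as in 11.0% of all tested genes. In 1, Rbms3, every knockout library lay below, at 413, 406 and 382 against 434, 428 and 438, as in 10.9% of all tested genes. Nt5e, Dock5 and Ptpn14, picked after their values were seen from those without overlap, had log2 fold changes of 0.47, 0.60 and 0.52 (limma, adjusted p = 0.0697, 0.102 and 0.142). Nt5e encodes an ecto-nucleotidase, Dock5 an exchange factor for RAC, and Ptpn14 a phosphatase that binds YAP. Gadd45a, also picked afterwards, had the lowest fold change of the list, at 48, 50 and 98 against 92, 95 and 76 (log2 fold change -0.49, adjusted p = 0.397). The call of Ankrd1 was lost with voom on recovered reads (adjusted p = 0.0531) and by limma with the replicate number as a block (adjusted p = 0.1115). That call was also lost without trend and robust moderation, and without knockout replicate 1 or any wildtype replicate. Over the alternatives the adjusted p of Ankrd1 reached 0.220. Of the 11 list genes with a RefSeq promoter, 3 held the TEAD core, Ankrd1 with 2 copies, Crim1 and Ptpn14.

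Of 27 tested Hippo pathway genes, in the lists of kinases, upstream regulators and TEAD and VGLL genes, limma called 0 and voom 0, where limma called 0.942% of all genes. At an unadjusted p under 0.05, 5 were higher, as were 8.54% of all genes, and 2 were lower, as were 1177 of all 14974 tested genes. The log2 fold changes of the 27 genes ran from -0.30 for Tead2 to 1.47 for Vgll3. Of the 10 kinases and adaptors, Stk3, the gene of MST2, stood at 267, 249 and 291 against 317, 323 and 296 (log2 fold change -0.22, limma, adjusted p = 0.253). Taok1, a kinase that activates MST kinases, stood at 879, 942 and 1000 against 846, 872 and 815 (0.15, adjusted p = 0.304). The median of that list was 0.07, with 6 of 10 fold changes above 0, against 49.8% over all tested genes.

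Of 12 upstream and junctional regulators 9 had a fold change above 0, where 49.8% of all tested genes did. The median of the list was 0.12. Fat1, an atypical cadherin, stood at 1034, 1015 and 910 in knockout and 737, 835 and 732 in wildtype libraries (log2 fold change 0.36, limma, adjusted p = 0.0677). Limd1, a relative of Ajuba that also binds LATS kinases, stood at 1238, 1206 and 1123 against 949, 999 and 982 (0.28, adjusted p = 0.0741). In Fat1 and Limd1 the groups did not overlap, as in Ajuba. By limma Fat1 passed in the male libraries alone (adjusted p = 0.0490), with sex as a term (0.0484) and when knockout replicate 3 was left out (0.00627). Limd1 passed in the last of these settings (0.0122).

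Among the TEAD paralogues, Tead2 went the other way from Tead1. Tead2 stood at 596, 638 and 602 in knockout and 762, 726 and 770 in wildtype libraries, with no overlap (log2 fold change -0.30, standard error 0.06, limma, adjusted p = 0.0615). It was called lower without knockout replicate 2 (0.0430) or 3 (0.0295). The remaining paralogues, Tead3 and Tead4, had log2 fold changes of 0.07 and -0.10. Per exon length Tead2 had the highest wildtype level of the TEAD genes, at an RPKM of 32.3. Tead3 stood at 17.9, Tead1 at 17.6 and Tead4 at 5.50. Vgll3, a TEAD cofactor, stood at 105, 87 and 361 in knockout and 35, 58 and 74 in wildtype libraries. Its log2 fold change of 1.47 (adjusted p = 0.284) was 0.83 without knockout replicate 3 and 0.54 in the male libraries, and the highest value was again that of knockout replicate 3. Vgll4, a cofactor that competes with YAP for TEAD, had a log2 fold change of -0.03.

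**Figure D5:**
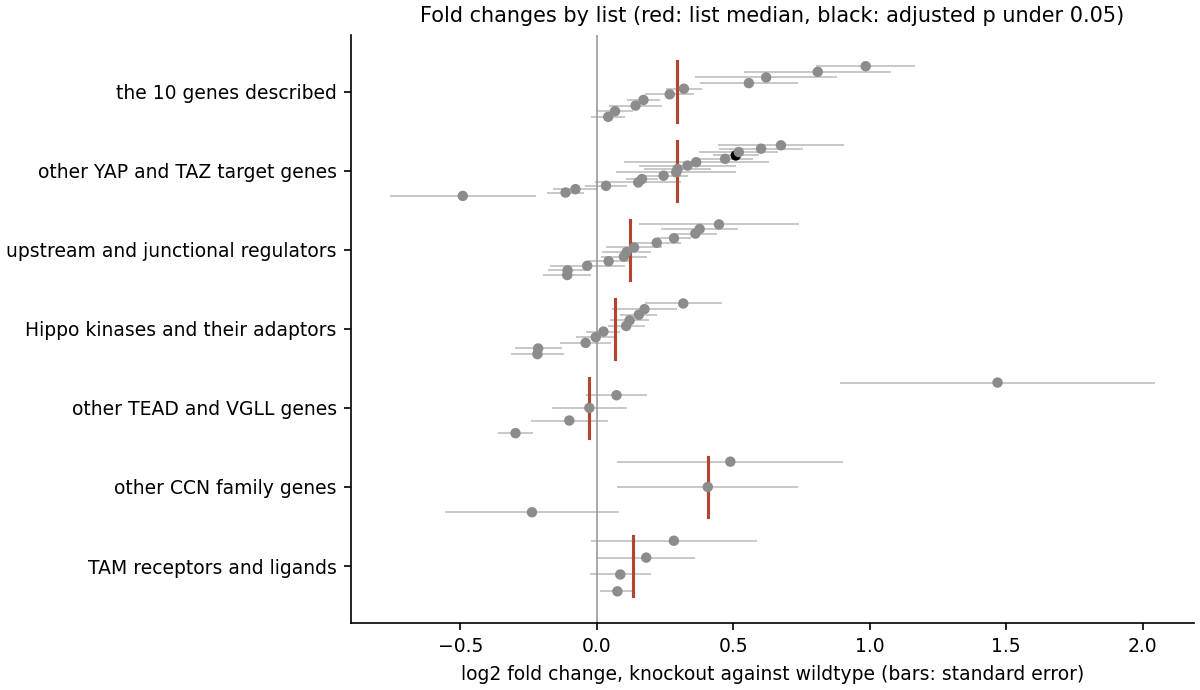
Log2 fold change of knockout against wildtype (horizontal axis) for the 10 genes and the tested genes of 6 further lists; points are genes, bars standard errors and red lines list medians. The medians of the 10 genes and of the other target genes lie at 0.29, and Ankrd1 is the 1 gene drawn in black.

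Relatives of the CCN and AXL proteins held no called gene (0 of 7 by limma, 0 by voom, 0 at an unadjusted p under 0.05). Over all tested genes these shares were 0.942%, 0.488% and 16.4%, so nothing is read from 0 of 7. Ccn3 stood at 157, 187 and 488 against 169, 166 and 184, so that only knockout replicate 3 was high (log2 fold change 0.49, adjusted p = 0.614). Ccn5 was scarce, at 14, 34 and 22 against 15, 17 and 17 (0.41, adjusted p = 0.583). Gas6, the ligand of AXL, stood at 1267, 1283 and 1233 against 1209, 1123 and 1262 (0.08, adjusted p = 0.605). Tyro3, a receptor related to AXL, had a log2 fold change of 0.18 (adjusted p = 0.664).

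The 3 tested genes most like Ccn2 over the 6 libraries, by Pearson r of log2(value + 1), were Sorbs3, Gnmt and Etv3, each with an r of 0.99 or above. Sorbs3 encodes the focal adhesion adaptor vinexin and stood at 755, 727 and 819 against 682, 672 and 658 (r = 0.995). Gnmt, a glycine methyltransferase, stood at 45, 31 and 58 against 21, 22 and 17 (r = 0.995). Etv3, an ETS family repressor, stood at 455, 410 and 512 against 341, 355 and 332 (r = 0.994). Of all tested genes 4.05% had an r above 0.9 to Ccn2.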

How the data were processed

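The labels' protocols give total RNA of hearts, a stranded mRNA kit and reads from 1 end. The submitters' processing notes list, with no role or order, STAR 2.7.11a, featureCounts 2.0.4, Trimmomatic 0.39, DESeq2 1.36.0, Picard 3.0.0 and the build mm39. Unit of the deposited table is a score: to judge by the spacing of low values, the authors multiplied read numbers by a factor per library (0.8524 to 1.1798) and rounded them. Division by the factor gave the recovered reads, 4163230 to 5805783 per library, whose number limits the precision of low genes.

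Tests used limma 3.58.1 (statmod 1.5.0, R 4.3.3) on log2(value + 1), which understates the change of low genes, with trend and robust moderation, no covariate and Benjamini-Hochberg adjustment over the 14974 genes that reached 10 in 3 or more libraries. Exon lengths came from GENCODE vM21 by identifier and promoters from RefSeq GRCm38.p6. The genes described and the lists were chosen with earlier results of these data known. Of each other pathway list the text names every called gene, up to 6, or else the 2 with the smallest p. It also names the 3 genes most like Ccn2 and single markers of cell type lists whose sums did not overlap between groups. Other names were picked after their values were seen. Alternatives covered scaling, filter, pseudocount, moderation, voom, sex, replicate number and each library left out. The scripts were tested on simulated data. The sum of the erythroid marker list is not reported here.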

Additional observations from a re-analysis of the deposited data

Results flagged for a closer look

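In 5 of 60 members and pathway genes examined, both male knockout libraries lay on one side of both male wildtype libraries and the female knockout library lay on the other side of the female wildtype library. None was among the 10 genes described. The share of all tested genes with such a pattern was not determined, so nothing is read from the count of 5. The difference between the sexes was not tested, since each group holds 1 female library. Between the female libraries the log2 difference of knockout and wildtype was 0.09 for Gadd45a, 0.15 for Asap1, -0.07 for Nf2, -0.46 for Vgll4 and 0.63 for F3. In the male libraries the log2 fold changes were -0.78, -0.03, 0.10, 0.19 and -0.09 in the same order. The difference in sign was wide in Gadd45a, Vgll4 and F3, and small in Asap1 and Nf2.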

How the results depend on the processing

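All 170 fold changes of the 10 genes under 17 alternatives, of which restriction to male libraries was chosen after seeing the data, were above 0. Their ranges were 0.79 to 1.17 for Ccn2, 0.52 to 0.99 for Ccn1, 0.34 to 0.77 for Amotl2, 0.44 to 0.90 for Amotl1 and 0.02 to 0.23 for Lats2. Filter, moderation, replicate block and sex term cannot move a fold change in these balanced libraries. Those settings could therefore not alter a sign, and the count of 170 is a description. The whole-table count of 141 became 218 with no filter, 83 with a minimum of 50, 24 without trend and robust moderation, 73 with voom on recovered reads, 256 in male libraries only and 223 with a term for sex. With each library left out in turn it ran from 0 to 727, from 0 to 2 for the 10 genes, from 0 to 3 for the other target genes and from 0 to 3 for the Hippo pathway genes. The other target genes held 0 called genes without trend and robust moderation, with voom and with the replicate block. In male libraries only, and equally with sex as a term, the 10 genes held 2 called genes and the Hippo pathway genes 1.

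With the replicate number as a block the whole-table count was 23. No sign of pairing by number was seen: deviations of same-numbered libraries correlated at -0.169, -0.111 and -0.130, and no library correlated best with its own number. Deviations from a mean of 3 libraries depend on each other, so these values cannot exclude a pairing. Of 423 gene values under alternatives 0 reversed, 394 stayed within the spread or kept their call, 17 gained a call, 11 lost one and 1, that of Vgll3, moved. Settings that cannot move a fold change are part of these counts. With 3 libraries a group, and 2 once a library is left out, a call that is lost shows no smaller difference.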
